A study of Mus musculus with 9 samples.

Results

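Cells that carried both labels of the study (overlap) were compared with cells that carried the mCherry label alone. The comparison used 6 of the 9 libraries of the series, 3 labelled overlap and 3 labelled mCherry, which are all the libraries with those labels. The other 3, labelled c-fos, entered the same statistical fit and are quoted only where they bear on a result. The design text describes mouse cells with a CRD label, a His label or both labels, and the title places them in the basolateral amygdala, in work on visceral pain and itch. Whether mCherry marks the CRD or the His cells is not stated. Strain, age, sex, allele, dose and the delivery of mCherry are not given either in the sources used here. What all 6 libraries share is tissue fixed in paraformaldehyde and frozen, cells dissected under a laser, and the Smart-3SEQ method, which counts the 3' ends of polyadenylated RNA. The labels also call the cells spermatocytes and the source a testicular biopsy, which goes against the title, and the markers bearing on this are given below. No label ties a library to an animal. If captures of the same group share animals, p-values over libraries are too small. If overlap and mCherry captures share animals, the main fit ignores that pairing. The p-values reflect the spread among these libraries alone, and that spread may be technical.

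Fos is the classic gene of neuronal activity. Calcium entry and synaptic input drive phosphorylation of transcription factors already present in the nucleus, above all CREB and SRF, and these switch on a first wave of genes within minutes. The first wave encodes transcription factors such as Fos, Egr1 and Npas4 and negative regulators such as the Dusp phosphatases, and a later wave encodes synaptic effectors such as Arc and Nptx2. In the amygdala, the cells that switch on Fos after an experience are widely used as a mark of the neurons engaged by it. An overlap cell was by definition c-fos labelled, so the activity genes described here are not independent of how the cells were chosen.

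The overlap libraries held 90091, 225621 and 282974 counts, against 259973, 429317 and 198865 in the mCherry libraries (means 199562 ± 99047 in overlap and 296052 ± 119387 in mCherry libraries, SD, n = 3 each, two-sided exact permutation p = 0.5). After thinning every library to 90091 counts, 10950 ± 1204 genes were detected in overlap and 11055 ± 1519 in mCherry cells (exact permutation p = 0.9). With 3 libraries against 3 the smallest p of this test is 0.1. Libraries overlap 1 and mCherry 3 stood apart through pancreatic transcripts. The 8 islet markers summed to 22075 CPM in overlap 1, against 722 and 762 CPM in overlap 2 and 3, and to 14841 CPM in mCherry 3, against 402 and 287 CPM in mCherry 1 and 2. CPM here and below was computed with library sizes scaled by the trimmed mean (TMM). Library mCherry 3 also had the lowest TMM factor, 0.636, where the other 5 lay between 1.00 and 1.15. List medians are therefore also given without these libraries, as are the values of some named genes that moved with them.

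Meg3 and Malat1, long noncoding RNAs that stay in the nucleus and are abundant in neurons, fell in overlap cells. Meg3, the maternally expressed RNA of the imprinted Dlk1 locus, had 612, 1405 and 1445 counts in overlap 1 to 3, against 4375, 5173 and 1413 counts in mCherry 1 to 3. That corresponds to 6710, 5400 and 5100 CPM in overlap and 16600, 11600 and 11200 CPM in mCherry libraries. On the TMM scale no overlap library reached the lowest mCherry library, while on at least 1 of the 4 other scales the groups met. Malat1, an RNA of nuclear speckles, had 2900, 2930 and 2450 CPM in overlap and 7790, 6130 and 6370 CPM in mCherry libraries, and its groups were apart under all 5 scales. Meg3 averaged 5740 ± 858 CPM in overlap and 13100 ± 3010 CPM in mCherry cells, and Malat1 2760 ± 265 CPM in overlap and 6760 ± 895 CPM in mCherry cells (SD, n = 3 each). The log2 fold changes were -1.19 ± 0.16 (SE) for Meg3 and -1.29 ± 0.17 for Malat1, each with a Benjamini-Hochberg adjusted p of 0.00636 in edgeR's quasi-likelihood test. Over the alternatives tried, the adjusted p ranged from 4.35e-21 to 0.237 for Meg3 and from 1.72e-10 to 0.237 for Malat1. The log2 fold change lay between -1.47 and -0.40 for Meg3 and between -1.42 and -0.51 for Malat1 in these alternatives. Without overlap 1 and mCherry 3, edgeR's adjusted p was 0.136 for Meg3 and 0.14 for Malat1. The c-fos libraries stood nearer to mCherry, with 10600 ± 673 CPM of Meg3 and 4980 ± 682 CPM of Malat1.

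These were 2 of 7959 genes tested, or 0.0251%, both lower, and 0 were called higher (0%). Without adjustment, 503 genes had a p under 0.05 with a higher value in overlap cells (6.32%) and 614 with a lower one (7.71%). DESeq2 called 180 genes, 131 higher and 49 lower (2.3% of 7812, or 1.68% higher and 0.627% lower), and limma-voom called 37, 1 higher (0.0126%) and 36 lower (0.452%), together 0.465%. Leaving out mCherry 1, 2 or 3 moved edgeR's count to 16, 5 and 20. With the replicate number as a block, edgeR called 10, 1 higher (0.0126%) and 9 lower (0.113%), together 0.126%. Only 3 genes were called by both DESeq2 and limma-voom. Reads of Meg3 and Malat1 cannot be told from those of annotated genes that overlap them, which lie on the same strand (predicted and small RNA genes for Meg3, a predicted gene for Malat1) and, for each, on the other strand (a predicted gene). All genes named from here on missed the threshold of edgeR's test, so their values are given without saying that they changed.

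**Figure D1:**
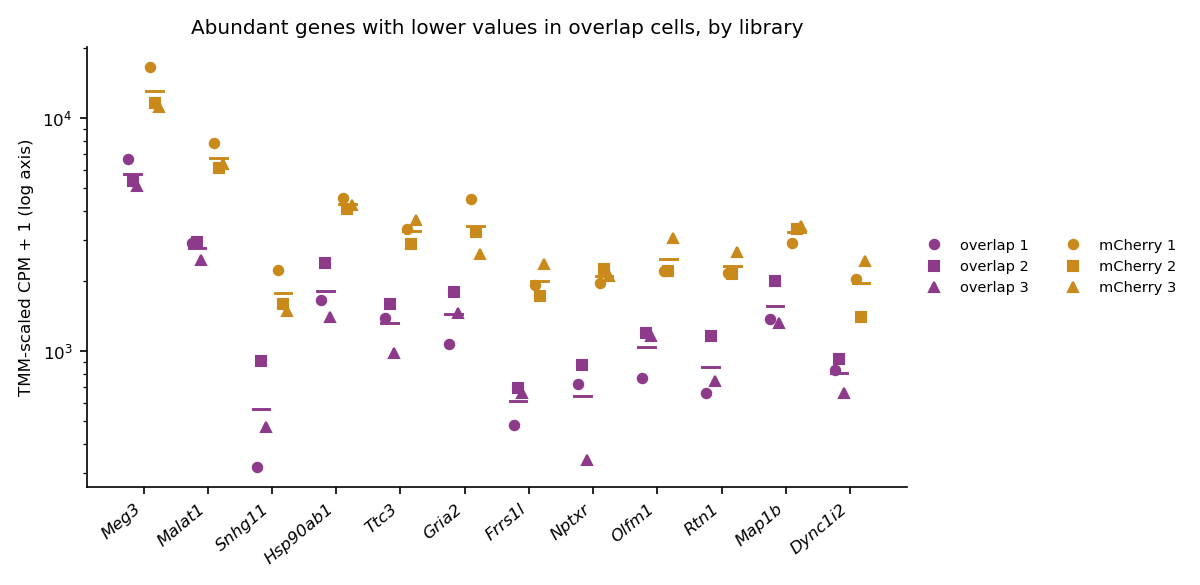
Level of 12 abundant genes in each overlap (purple) and mCherry (orange) library, as TMM-scaled CPM plus 1 on a log axis, with a bar at the mean of each group. For Meg3 the overlap libraries sit between 5100 and 6710 CPM and the mCherry libraries between 11200 and 16600 CPM, and Meg3 and Malat1 are the 2 genes that passed the test.

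The most abundant genes had lower values in overlap cells as a class on the TMM scale, while on a scale set on the 200 most abundant genes their median was by construction near 0, at 0.05. Ranked by abundance over all 9 libraries, 47 of the top 50 genes and 128 of the next 150 had negative log2 fold changes, where 51.3% of all tested genes did. Their medians were -0.88 and -0.69, against 0.16 for the class of lowest abundance. The 200 most abundant genes took 18.4, 17.7 and 13.8% of all counts in overlap 1 to 3, and 27.2, 23.1 and 17.6% in mCherry 1 to 3 (means 16.6 ± 2.49% in overlap and 22.7 ± 4.82% in mCherry libraries, exact permutation p = 0.3). The ranges touch, since mCherry 3 lies within those of the overlap libraries. Pseudogenes took 6.02, 5.61 and 6.57% of counts in overlap and 2.89, 4.0 and 6.05% in mCherry libraries, ranges that also met.

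The choice of scale decides where 0 lies on this slope. A scale moves all genes by nearly the same amount, so the slope had to appear under each of the 5 scales, which is no separate support for it. Total counts moved the median of all genes by 0.19 relative to TMM, DESeq2's size factors by 0.22, upper quartile scaling by -0.05, and a scale set on the 200 most abundant genes by 0.76. On that last scale the top 50 genes had a median of -0.10 and the class of lowest abundance one of 0.90. Meg3 stood at -0.40 and Malat1 at -0.51 there, on total counts at -0.99 and -1.06, and neither passed the test in edgeR on any scale other than TMM. Without overlap 1 and mCherry 3 the medians of the top 50 and of the lowest class were -0.97 and 0.13 on the TMM scale, so the slope was as large without them. In libraries made from captured cells, fewer cells of a type and less RNA per cell cannot be told apart.

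**Figure D2:**
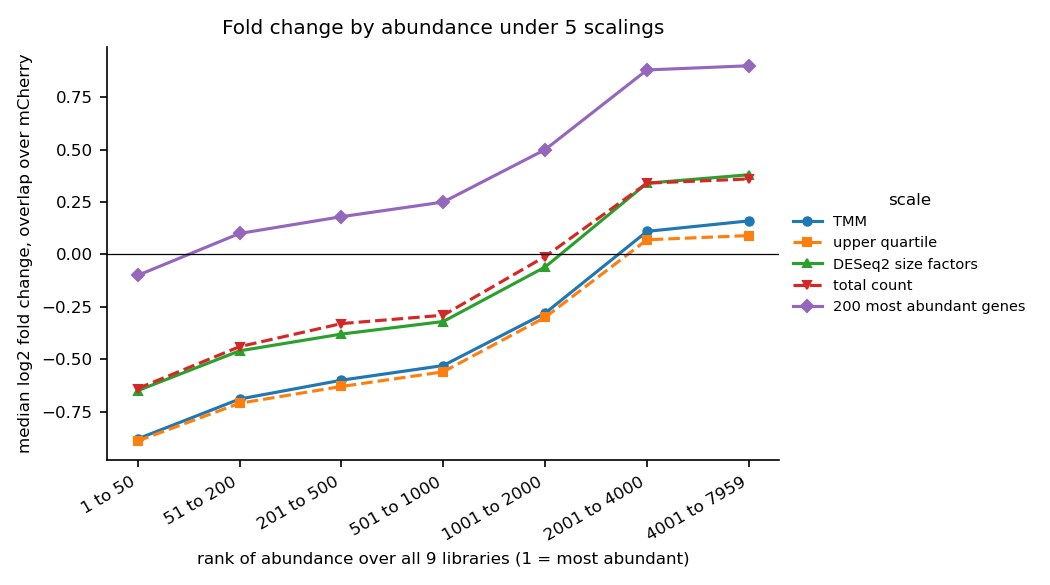
Median log2 fold change of overlap over mCherry in 7 classes of genes ranked by abundance (horizontal axis, most abundant at the left), with 1 line per scale. The lines run in parallel, from -0.88 to 0.16 on the TMM scale and from -0.10 to 0.90 on the scale of the 200 most abundant genes.

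To find genes whose separation did not rest on the scale, those were taken whose overlap and mCherry libraries did not overlap in level under any of the 5 scales. There were 756 (9.5% of the tested genes), 455 with higher values in overlap cells (5.72%) and 301 with lower ones (3.78%). On the TMM scale alone there were 1382 (17.4%), 508 higher (6.38%) and 874 lower (11%). Of the 50 most abundant genes 6 were separated downward in this way, and of the next 150 genes 19, and 0 upward in either class.

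Among the higher ones, the 12 of smallest p that were named genes were mostly low in count. Fbxo8, an F-box protein, had 932, 69.2 and 60 CPM in overlap and 7.59, 6.73 and 0 CPM in mCherry libraries (log2 fold change 5.85 ± 1.32, unadjusted p = 0.000417, adjusted p = 0.151). Most of its counts lay in overlap 1, and without overlap 1 and mCherry 3 its fold change was 3.06. Olfr23, an olfactory receptor gene, had 18, 21 and 19 counts in overlap and 0 in each mCherry library, at least 25.4-fold higher against a floor of 3 counts over the summed group. The pattern was of a similar kind for genes with a few mCherry counts. Selenoo, a mitochondrial selenoprotein, had 12, 19 and 55 counts in overlap against 1, 2 and 0 in mCherry, a ratio of pooled counts of 37.7 (exact binomial 95% interval 12.5 to 187). Rab37, a small GTPase of secretory vesicles, had a ratio of 44.8 (11.9 to 377), and Ccnt2, the cyclin T2 subunit of the elongation factor P-TEFb, one of 30.3 (7.92 to 257). These intervals cover counting error only.

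Ppl, the cytoskeletal linker periplakin, had 136 ± 42.1 CPM in overlap and 4.02 ± 3.81 CPM in mCherry cells (log2 fold change 4.75 ± 1.16). Mms19, which helps insert iron-sulfur clusters into DNA repair enzymes, had 197, 184 and 222 CPM in overlap and 37.9, 13.5 and 15.8 CPM in mCherry libraries (3.13 ± 0.83), and was even across overlap cells. Cmtm8 (5.05 ± 1.27), Fam184b (4.70 ± 1.22) and the centrosomal gene Alms1 (4.76 ± 1.24) completed the set with the activity genes Npas4 and Sik1. DESeq2 called 11 of these 12, with adjusted p from 0.0037 to 0.0139, and gave no adjusted p for Fbxo8. As the 12 were chosen by small edgeR p and separated groups from the same counts, these calls are not separate support.

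Of the 12 lower genes of smallest p, Malat1 is described above, and 3 had most of their mCherry counts in mCherry 3. Ttc3, a ubiquitin ligase, had 1380, 1590 and 980 CPM in overlap and 3360, 2870 and 3650 CPM in mCherry libraries (-1.32 ± 0.24, adjusted p = 0.0857). Frrs1l, which assembles AMPA receptors in the endoplasmic reticulum, had 483, 695 and 660 CPM in overlap against 1930, 1720 and 2370 CPM in mCherry libraries (-1.70 ± 0.31, adjusted p = 0.0857). Both were lower in each overlap library than in any mCherry library, and Frrs1l was the 1 abundant gene among them that DESeq2 also called (adjusted p = 0.0343). Nptxr, the pentraxin receptor that clusters AMPA receptors, had 724, 868 and 339 CPM in overlap and 1970, 2250 and 2110 CPM in mCherry libraries (-1.71 ± 0.34), though it shares its strand with Npcd. Rtn1, a reticulon of the endoplasmic reticulum, stood at -1.44 ± 0.29 and Dync1i2, a dynein intermediate chain, at -1.28 ± 0.28. Tanc2, a postsynaptic scaffold, stood at -1.82 ± 0.41.

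The 3 carried by mCherry 3 were Cacnb2, Gpr107 and Prtg. Cacnb2, a calcium channel beta subunit, had 1 count over the overlap libraries and 14, 21 and 122 counts in mCherry 1 to 3, a ratio of 119 for mCherry over overlap (95% interval 21.1 to 4740). Gpr107, a Golgi membrane protein, was at 0 in overlap cells and at 11, 20 and 75 counts in mCherry cells, at least 26.8-fold lower. Prtg, a protogenin of the immunoglobulin superfamily, had 0, 26.9 and 21.2 CPM in overlap and 110, 186 and 1900 CPM in mCherry libraries. The fitted log2 fold change of Prtg was -2.66 without overlap 1 and mCherry 3, against -5.28 with them.

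Fos itself, whose protein gives the c-fos label its name, had 49, 78 and 61 counts in overlap and 41, 24 and 6 counts in mCherry libraries. On the CPM scale these were 537, 300 and 215 in overlap and 156, 53.8 and 47.5 in mCherry cells. The groups did not touch under any scale, in the direction the labels imply. The log2 fold change was 2.01 ± 0.66 (unadjusted p = 0.00755, adjusted p = 0.242 in edgeR and 0.0394 in DESeq2), and 1.27 without overlap 1 and mCherry 3. Over the alternatives the adjusted p of Fos lay between 0.0394 and 0.489. The c-fos libraries had 293 ± 35.3 CPM of Fos, within the range of the overlap libraries.

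Activity genes, Fos counted among them, had higher values in overlap cells in most cases. Of 58 genes on 4 lists, 56 had counts and 36 passed the filter on low counts. The filter used all 9 libraries, so activity genes high only in overlap and c-fos cells could pass it. Npas4, with 5, 0 and 0 counts in mCherry libraries, is an example. The tallies below may lean upward through this and are not independent of the filter. Of these 36, 30 had positive log2 fold changes, where 48.7% of all tested genes did. The median was 1.27, against -0.05 for all genes tested, and 2.12 on the scale of the 200 most abundant genes, where all genes had 0.71. Without overlap 1 and mCherry 3 it was 1.24. An unadjusted p under 0.05 was reached by 12 of them with higher values and by 0 with lower ones. Of all tested genes, 6.32% reached that p with higher and 7.71% with lower values. Under all 5 scales 11 were separated upward and 0 downward, where 5.72% and 3.78% of all tested genes were. No member passed edgeR's adjusted test, while DESeq2 called 7 higher (1.68% of all genes it tested were called higher) and 0 lower. Summed over the 4 lists, the level was 6766, 4945 and 5791 CPM in overlap and 2713, 2230 and 3900 CPM in mCherry libraries (means 5834 ± 911 in overlap and 2947 ± 860 in mCherry libraries), apart in 5 of 5 scales. The 4 lists differed in this. Sums of the AP-1 factors and of the effectors were apart in 5 of 5 scales, and those of the other transcription factors and of the feedback genes in 2 of 5. The transcription factors summed to 1448, 1014 and 1153 CPM in overlap and 417, 343 and 1551 CPM in mCherry libraries, with mCherry 3 above every overlap library.

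The AP-1 factors, which dimerise to form the Fos-Jun family of transcription factors, were the first role. Of 10 genes, 7 were tested and 6 were positive, with a median of 1.54. Atf3, a stress-induced partner of Jun, had 21, 13 and 4 counts in overlap and 2, 0 and 0 in mCherry libraries, a ratio of 25 (95% interval 6.46 to 214). Its log2 fold change was 4.94, and 3.03 without overlap 1 and mCherry 3. Jun had 143, 265 and 74.1 CPM in overlap and 53.1, 69.5 and 7.91 CPM in mCherry libraries (1.81 ± 0.81). Its lowest overlap library lay just above the highest mCherry library on the TMM scale, and the groups touched on at least 1 other scale. Junb stood at 143, 123 and 173 CPM in overlap against 102, 15.7 and 31.6 CPM in mCherry libraries, and Fosb at 241, 69.2 and 84.6 CPM in overlap against 60.7, 17.9 and 111 CPM in mCherry libraries, with mCherry 3 inside the overlap range. Jund, which neurons express without stimulation, differed less, at 0.70 with an unadjusted p of 0.257. Fosl2 was the 1 negative member, from 3 counts in overlap and 9 in mCherry cells.

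Among the other activity transcription factors, 7 of the 9 tested of 16 were positive, with a median of 0.96. Npas4, a factor specific to neuronal activity, had 373, 65.3 and 145 CPM in overlap and 19, 0 and 0 CPM in mCherry libraries, so 2 mCherry libraries held none (4.76 ± 1.22, unadjusted p = 0.00129). Nr4a3, an orphan nuclear receptor, had 296, 165 and 102 CPM in overlap and 49.3, 35.9 and 31.6 CPM in mCherry libraries (2.23 ± 0.72). Egr1 and Egr4, zinc finger factors, had 154, 250 and 356 CPM and 21.9, 127 and 166 CPM in overlap libraries, against 91.1, 78.5 and 87 CPM and 11.4, 6.73 and 15.8 CPM in mCherry libraries. All 4 were separated under every scale, though their order across the overlap libraries differed: Npas4 and Nr4a3 were highest in overlap 1, Egr1 and Egr4 lowest there. Leaving out overlap 1 and mCherry 3 put the log2 fold change of Npas4 at 3.54, of Nr4a3 at 1.60, of Egr1 at 1.79 and of Egr4 at 3.95, against 4.76, 2.23, 1.57 and 3.28 with them.

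Both members with negative fold changes had their highest value in mCherry 3. Nr4a2, a nuclear receptor, had 143, 127 and 70.5 CPM in overlap libraries and 7.59, 13.5 and 498 CPM in mCherry libraries, and the circadian gene Per1 had 197, 92.2 and 60 CPM in overlap against 83.5, 4.49 and 403 CPM in mCherry libraries. Crem, a CREB family member, was not tested, and 52 of its 54 mCherry counts lay in mCherry 3. Without overlap 1 and mCherry 3, Nr4a2 stood at 3.09 instead of -0.58, Per1 at 0.79 instead of -0.49, and the median of these transcription factors at 1.60. Egr3, Klf4 and Nfil3 had overlapping groups, and Egr2, Nr4a1, Ier2, Ier5 and Klf2 fell below the filter.

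Feedback genes damp the response, and 7 of 9 tested of 16 were positive with a median of 1.99. Sik1, a kinase that restrains CREB coactivators, had 406, 111 and 67 CPM in overlap and 7.59, 4.49 and 0 CPM in mCherry libraries (5.23 ± 1.35). Dusp1, a phosphatase of MAP kinases, had 164, 34.6 and 77.6 CPM in overlap and 15.2, 0 and 0 CPM in mCherry libraries (3.98 ± 1.47). Both were separated under every scale. Spry2, an inhibitor of receptor tyrosine kinase signalling, had 186, 30.7 and 24.7 CPM in overlap against 3.79, 11.2 and 0 CPM in mCherry libraries (3.60 ± 1.33). Leaving out overlap 1 and mCherry 3 put Spry2 at 1.73 ± 1.68, Sik1 at 3.78 and Dusp1 at 2.87. Dusp6, which acts on ERK, fell below the filter, with 9, 9 and 1 counts in overlap and 0 in each mCherry library. Rgs2 and Rgs4, regulators of G protein signalling with more counts, stood near 0 at 0.15 and 0.11. Tiparp was the lowest at -2.74, with 99 of its 128 mCherry counts in mCherry 3, and stood at 0.56 without overlap 1 and mCherry 3.

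Effectors that reach the synapse or leave the cell gave 10 positive of 11 tested of 16, with a median of 1.26. Arc, which takes AMPA receptors off the membrane, had 329, 277 and 243 CPM in overlap and 34.1, 71.8 and 31.6 CPM in mCherry libraries. It was among the most even of the activity genes over the overlap libraries (283 ± 43.2 CPM in overlap against 45.9 ± 22.5 CPM in mCherry cells, 2.58 ± 0.88, adjusted p = 0.246 in edgeR and 0.0396 in DESeq2). Nptx2, a secreted pentraxin that clusters AMPA receptors, had 504, 619 and 1100 CPM in overlap and 505, 206 and 206 CPM in mCherry libraries (1.28 ± 0.53), so the groups met at overlap 1 and mCherry 1. Bdnf, a neurotrophin, had 11, 200 and 77.6 CPM in overlap and 56.9, 22.4 and 23.7 CPM in mCherry libraries, and Vgf, Homer1, Plk2 and Inhba likewise had positive fold changes of 0.91 to 1.72 with groups that overlapped. Ccn1, a matricellular protein, was the 1 negative member, with 3 counts in overlap and 59 in mCherry cells, a ratio of 14.9 for mCherry over overlap (95% interval 4.87 to 74.5), and 56 of the 59 lay in mCherry 2.

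**Figure D3:**
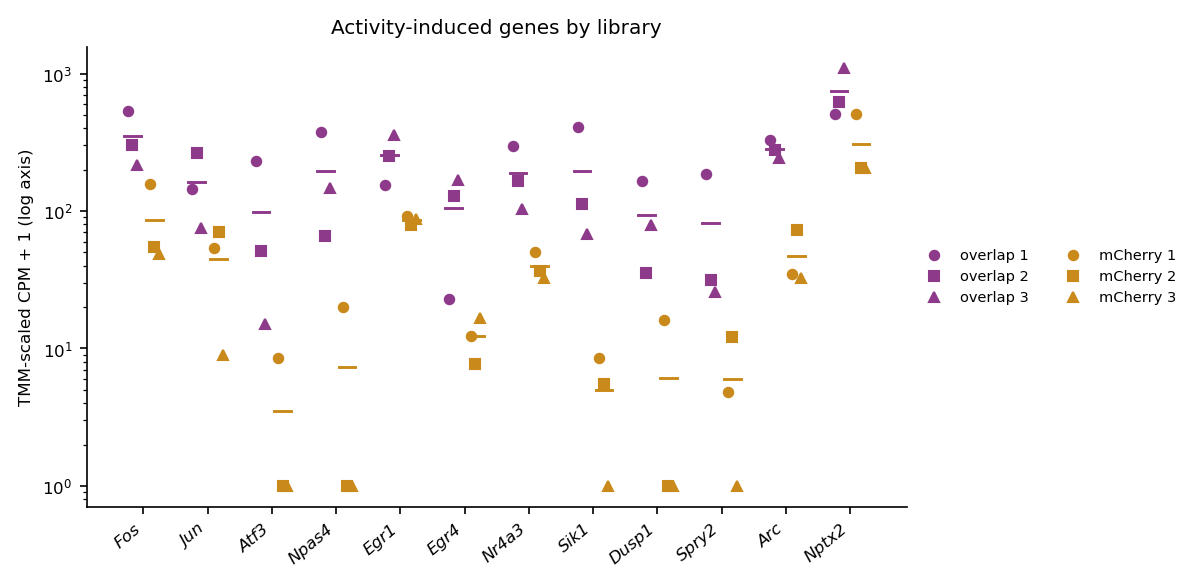
The 12 activity-induced genes with an unadjusted p under 0.05, as TMM-scaled CPM plus 1 on a log axis, in each overlap (purple) and mCherry (orange) library, with bars at group means. For Arc the overlap libraries lie between 243 and 329 CPM and the mCherry libraries between 31.6 and 71.8 CPM, while for Nptx2 the groups meet.

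CREB acts through the cyclic AMP response element, whose full form is the palindrome TGACGTCA and whose short form is TGACG. RefSeq promoters (GRCm38.p6, 250 bases before to 50 after each annotated start) were searched for both on both strands. Each full site holds 2 short sites, 1 on either strand. Of 63 promoters matched to 45 genes of the activity lists, 38 held a short site (60.3%) and 8 the full site (12.7%), where 20.8% and 1.79% of all 32851 promoters did. Of the 8 matched promoters of activity genes with an unadjusted p under 0.05, 6 held a short site. Sik1, Arc and Nptx2 were not matched, and Egr1 is not included. Promoters of 4 of the 8 are shown with that of Malat1, which fell, since short sites occur in both kinds. Capitals mark short sites on either strand, and adjoining capitals a full site.
Fos (chr12:85473640-85473939, plus strand): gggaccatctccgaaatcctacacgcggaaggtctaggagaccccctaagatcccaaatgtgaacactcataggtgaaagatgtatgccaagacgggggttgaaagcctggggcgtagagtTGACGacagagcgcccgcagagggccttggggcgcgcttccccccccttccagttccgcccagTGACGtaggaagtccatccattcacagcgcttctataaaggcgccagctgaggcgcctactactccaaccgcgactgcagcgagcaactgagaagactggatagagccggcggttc
Npas4 (chr19:4989922-4990221, minus strand): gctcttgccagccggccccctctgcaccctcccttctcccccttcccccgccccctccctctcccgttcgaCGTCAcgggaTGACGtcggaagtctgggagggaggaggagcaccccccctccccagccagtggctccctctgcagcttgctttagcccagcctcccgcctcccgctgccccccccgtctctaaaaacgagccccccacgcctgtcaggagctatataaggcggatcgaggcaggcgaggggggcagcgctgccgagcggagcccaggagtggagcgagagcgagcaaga
Nr4a3 (chr4:48045055-48045354, plus strand): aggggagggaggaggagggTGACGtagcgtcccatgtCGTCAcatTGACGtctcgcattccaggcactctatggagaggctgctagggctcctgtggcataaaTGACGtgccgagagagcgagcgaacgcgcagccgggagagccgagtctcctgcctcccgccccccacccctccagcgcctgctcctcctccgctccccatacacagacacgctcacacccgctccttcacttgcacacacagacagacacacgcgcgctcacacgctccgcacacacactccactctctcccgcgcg
Dusp1 (chr17:26508423-26508722, minus strand): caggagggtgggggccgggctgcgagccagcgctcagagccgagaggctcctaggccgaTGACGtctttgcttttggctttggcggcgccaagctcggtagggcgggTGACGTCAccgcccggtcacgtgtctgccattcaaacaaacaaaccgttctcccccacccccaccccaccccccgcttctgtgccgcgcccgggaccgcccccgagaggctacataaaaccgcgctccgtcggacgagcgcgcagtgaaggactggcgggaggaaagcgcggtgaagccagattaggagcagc
Malat1 (chr19:5802623-5802922, minus strand): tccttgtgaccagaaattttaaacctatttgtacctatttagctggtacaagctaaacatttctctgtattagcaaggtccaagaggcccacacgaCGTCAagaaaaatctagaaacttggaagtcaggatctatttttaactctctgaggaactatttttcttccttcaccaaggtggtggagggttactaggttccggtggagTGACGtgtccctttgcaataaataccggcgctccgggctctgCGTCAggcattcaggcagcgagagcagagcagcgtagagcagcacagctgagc
The Dusp1 promoter held the 1 full site among the 8, and Nr4a3 the most short sites, 4. Malat1 held 3 short sites. Among the 12 genes named for lower values under every scale, 3 of 13 matched promoters held a short site (23.1%), and among the 12 named for higher values 5 of 10 did (50%). A match describes letters in this window and says nothing about binding in these cells.

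Long noncoding RNAs other than Meg3 and Malat1 were mixed. Of 12 on the list, which includes both, 10 were tested, 7 with negative fold changes and a median of -0.78 (0.00 on the scale of the 200 most abundant genes). Snhg11, a neuronal host RNA of snoRNAs, had 318, 907 and 473 CPM in overlap and 2240, 1590 and 1480 CPM in mCherry libraries (-1.64 ± 0.38, adjusted p = 0.156 in edgeR and 0.0196 in limma-voom). Rian and Mirg, which lie in the same imprinted cluster as Meg3, had wide errors, at -0.78 and -1.74 with unadjusted p of 0.391 and 0.211. Kcnq1ot1, an imprinted antisense RNA, stood at -0.47, and Miat and Rmst had positive values of 1.84 and 0.38.

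AMPA receptor genes carried the lowest median of the 26 lists under each of the 5 scales, which move all lists by nearly the same amount. This was not so without overlap 1 and mCherry 3, where chaperones were lower. Of 28 genes, 19 were tested, 14 with negative fold changes, and the median was -1.26 (-0.48 on the scale of the 200 most abundant genes, -1.01 without overlap 1 and mCherry 3). Unadjusted p-values under 0.05 were reached by 7 with lower and 1 with higher values, where 7.71% of all tested genes reached one with a lower value. So did 31 of the 50 most abundant genes and 51 of the next 150, and Gria2, Olfm1, Nptxr and Frrs1l are among these 200. Separated downward under every scale were 2 of the 19, where 3.78% of all tested genes were. Summed, the list had 4375, 6317 and 5999 CPM in overlap and 14083, 11495 and 11946 CPM in mCherry libraries, apart in 5 of 5 scales. Gria2, the subunit that makes the receptor impermeable to calcium, had 1070, 1800 and 1450 CPM in overlap and 4520, 3250 and 2610 CPM in mCherry libraries (-1.26 ± 0.26, adjusted p = 0.136). Gria1 and Gria3 stood at -1.40 and -1.99, while Gria4 stood at -0.03. Olfm1, a secreted glycoprotein found with AMPA receptors, had 1040 ± 237 CPM in overlap and 2490 ± 499 CPM in mCherry cells (-1.26 ± 0.28), and the auxiliary subunit gene Cacng4 stood at -1.49. Nptx2, also an activity gene, was the 1 member with a higher value and an unadjusted p under 0.05.

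The other receptors for fast transmitters leaned the same way by less. NMDA, kainate and metabotropic glutamate receptor genes had 10 of 12 tested negative with a median of -0.33, and 0 members reached an unadjusted p under 0.05. On the scale of the 200 most abundant genes their median was 0.43, where all tested genes had 0.71. The obligatory NMDA subunit Grin1 had 428, 469 and 681 CPM in overlap and 535, 733 and 775 CPM in mCherry libraries, ranges that met. GABA receptor genes were negative in 10 of 10 tested, with a median of -0.88 (-0.11 on the scale of the 200 most abundant genes). Gabra2, a subunit common in the amygdala, had 746, 934 and 578 CPM in overlap and 1480, 1110 and 1340 CPM in mCherry libraries (-0.80 ± 0.32, adjusted p = 0.288), and Gabrb1 stood at -2.01 ± 0.94 from 10 overlap counts.

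Among ion channels, the median was -0.38 for 23 sodium and calcium channel genes and -0.40 for 28 potassium channel genes. On the scale of the 200 most abundant genes these were 0.39 and 0.40, where all tested genes had 0.71. Scn2a, a sodium channel of the axon initial segment, had 87.7, 196 and 159 CPM in overlap and 414, 296 and 435 CPM in mCherry libraries and was separated under every scale (-1.35 ± 0.52). Kcnn2, a calcium-activated potassium channel, ran the other way with 0, 158 and 437 CPM in overlap and 37.9, 44.9 and 15.8 CPM in mCherry libraries (2.55 ± 1.15), its overlap libraries on both sides of the mCherry ones. Kcnd3 (-3.56) had 95 of its 120 mCherry counts in mCherry 3, and stood at -1.03 with overlap 1 and mCherry 3 left out.

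Genes of transmitter release had negative values in 32 of 45 tested, with a median of -0.45. On the scale of the 200 most abundant genes it became 0.30, where all tested genes had a median of 0.71. Of the 45, 5 had an unadjusted p under 0.05 with a lower value and 0 with a higher one, where 7.71% of all tested genes were lower at that p. Separated downward under every scale were 5, where 3.78% of all tested genes were. Cplx2, a complexin that clamps vesicle fusion, had 11, 69.2 and 21.2 CPM in overlap and 429, 209 and 261 CPM in mCherry libraries (-3.06 ± 0.86, DESeq2 adjusted p = 0.0357). Syt1, the calcium sensor of release, had 597 ± 175 CPM in overlap and 1320 ± 33.9 CPM in mCherry cells (-1.14 ± 0.34). Vamp2, the vesicle SNARE, had 105 ± 63.6 CPM in overlap and 422 ± 80.3 CPM in mCherry cells (-1.97 ± 0.60), and Rimbp2, an active zone protein, 29.8 ± 28.9 CPM in overlap and 320 ± 273 CPM in mCherry cells (-3.28 ± 0.98, DESeq2 adjusted p = 0.0424, and -1.92 with overlap 1 and mCherry 3 left out).

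Postsynaptic scaffold genes were nearly balanced on the TMM scale, 10 positive and 12 negative of 22 tested (median -0.15). On the scale of the 200 most abundant genes their median was 0.59, where all tested genes had 0.71. At an unadjusted p under 0.05, 5 had lower values and 0 higher, where 7.71% of all tested genes were lower and 6.32% higher. Dlg4, which encodes PSD-95, had 493, 1160 and 899 CPM in overlap and 1650, 1590 and 1890 CPM in mCherry libraries (-1.0 ± 0.33), and Shank1 stood at -1.14 ± 0.34. On the scale of the 200 most abundant genes these were -0.24 and -0.39. Cnksr2, a scaffold linked to PSD-95, had 31.7 ± 29.7 CPM in overlap and 179 ± 84.3 CPM in mCherry cells (-2.64 ± 0.89). Homer2 and Homer1 had positive values of 1.55 and 1.13, and Homer2 stood at 0.05 without overlap 1 and mCherry 3.

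Calcium signalling genes, 12 of 16 tested negative on the TMM scale (median -0.67), included several partners of calmodulin. On the scale of the 200 most abundant genes 9 were positive and 7 negative. The median there was 0.11, where all tested genes had 0.71. Camkv, a kinase-like protein that binds calmodulin, had 54.8, 177 and 102 CPM in overlap and 550, 384 and 625 CPM in mCherry libraries (-2.19 ± 0.55, adjusted p = 0.172 in edgeR and 0.0334 in DESeq2). Nrgn, neurogranin, which holds calmodulin at low calcium, had 331 ± 125 CPM in overlap and 868 ± 160 CPM in mCherry cells (-1.38 ± 0.42). Ppp3cb, a calcineurin catalytic subunit, stood at -2.07 ± 0.69 and was separated under every scale with Camkv and Ncald. Camk2a and Camk2b stood at -1.14 and -0.90 with unadjusted p of 0.077 and 0.0674.

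**Figure D4:**
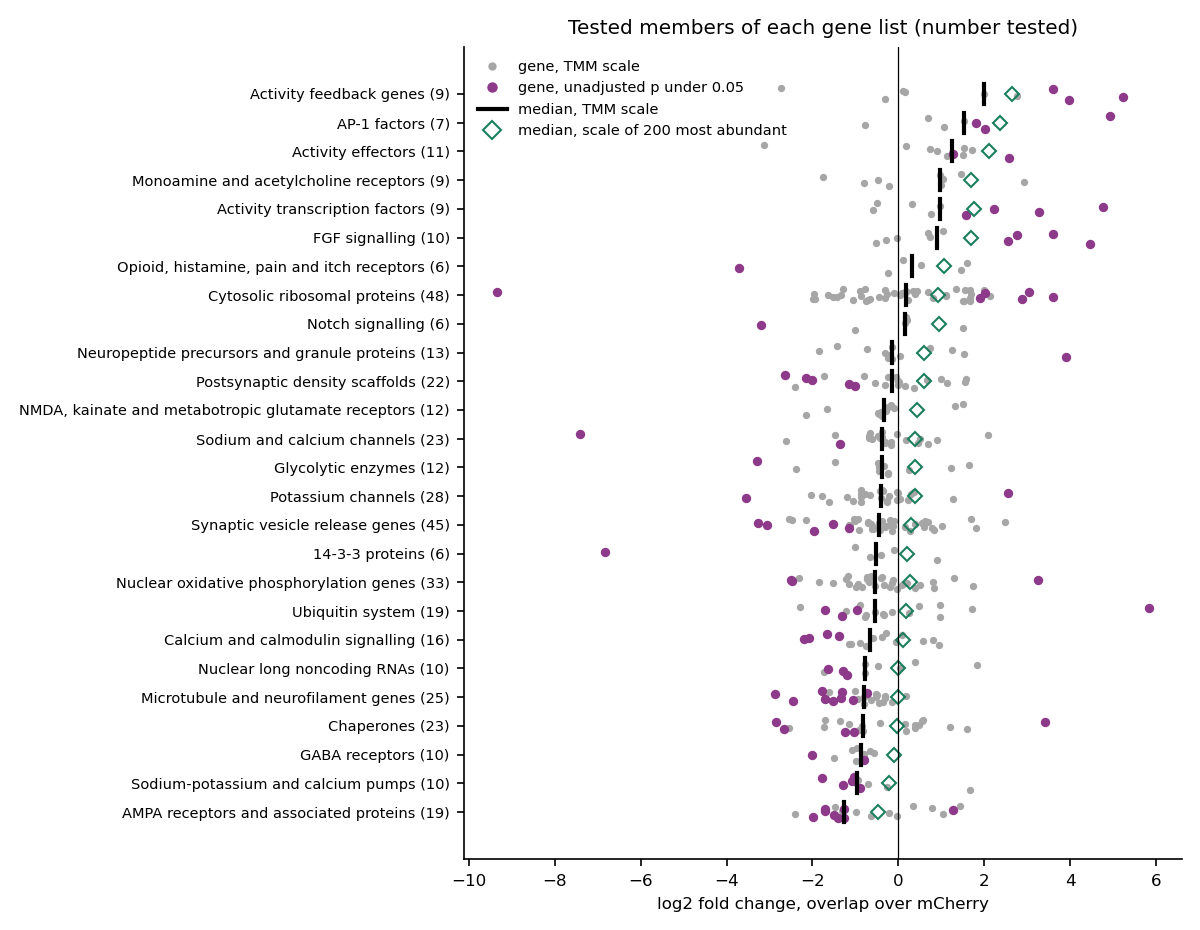
Log2 fold change of overlap over mCherry for every tested gene of 26 lists (points, purple where the unadjusted p is under 0.05), with the list median on the TMM scale (bar) and on the scale of the 200 most abundant genes (open diamond). The 4 activity lists have medians of 0.96 to 1.99 on the TMM scale, monoamine and acetylcholine receptor genes 0.98, and AMPA receptor genes the lowest, -1.26.

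Most list medians kept their sign when overlap 1 and mCherry 3 were left out. Among activity genes the medians were then 1.27 for AP-1 factors, 1.73 for feedback genes and 0.90 for effectors. Among receptors and channels they were -0.27 for NMDA, kainate and metabotropic glutamate receptors, -0.62 for GABA receptors, -0.85 for sodium and calcium channels and -0.41 for potassium channels. For synaptic genes they were -0.63 for vesicle release, -0.36 for postsynaptic scaffolds and -0.56 for calcium signalling. The lists described next had -0.83 for microtubule and neurofilament genes, -0.76 for pumps, -1.14 for chaperones, -0.39 for ubiquitin genes, -0.50 for oxidative phosphorylation, 0.32 for ribosomal proteins and 1.35 for FGF signalling. Of the 26 lists, 3 changed sign. Glycolytic enzymes came to 0.09, Notch genes to -0.13 and the opioid, histamine, pain and itch receptors to -0.65, against -0.39, 0.16 and 0.32 with all libraries.

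Microtubule and neurofilament genes gave 24 negative of 25 tested with a median of -0.79, where 51.3% of all tested genes were negative. On the scale of the 200 most abundant genes the median became 0.00, with 11 positive. All tested genes had a median of 0.71 there. On the TMM scale 9 had an unadjusted p under 0.05, all with lower values. Of all tested genes 7.71% were lower at that p, as were 31 of the 50 most abundant and 51 of the next 150. Map1a, a microtubule-associated protein of dendrites, had 614, 573 and 416 CPM in overlap and 1900, 1400 and 1310 CPM in mCherry libraries (-1.53 ± 0.34), and Mapt, which encodes tau, had 677 ± 232 CPM in overlap and 1700 ± 44.5 CPM in mCherry cells (-1.33 ± 0.35). Both were separated under every scale. Map1b stood at -1.05 ± 0.23 and the kinesin gene Kif5a at -1.32 ± 0.33, and limma-voom called all 4, with adjusted p from 0.00609 to 0.0357.

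Pumps that restore ion gradients were negative in 9 of 10 tested (median -0.96, and -0.21 on the scale of the 200 most abundant genes). Atp2b1, a calcium pump of the plasma membrane, had 943, 1170 and 896 CPM in overlap and 2550, 1870 and 2000 CPM in mCherry libraries (-1.09 ± 0.26). Its relative Atp2b4 stood at -1.04 ± 0.35.

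Chaperones had 10 positive and 13 negative of 23 tested, with a median of -0.83 (-0.02 on the scale of the 200 most abundant genes). Hsp90ab1, the constitutive cytosolic HSP90, had 1660, 2390 and 1400 CPM in overlap and 4540, 4060 and 4260 CPM in mCherry libraries (-1.24 ± 0.22). Its adjusted p of 0.0836 was the smallest after Meg3 and Malat1, and limma-voom gave 0.000435. St13, a cochaperone of HSP70, had 31.8 ± 1.08 CPM in overlap and 234 ± 222 CPM in mCherry cells (-2.85 ± 0.88, and -1.80 with overlap 1 and mCherry 3 left out). Tcp1, a subunit of the cytosolic chaperonin, had 98.7, 65.3 and 169 CPM in overlap and 0, 20.2 and 7.91 CPM in mCherry libraries (3.41 ± 1.25), separated upward under every scale. Among ubiquitin genes, the ligase Huwe1 (-1.70 ± 0.55) and the deubiquitinase Usp34 (-0.97 ± 0.35) stood with Ttc3, opposite to Fbxo8.

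Genes of glycolysis and oxidative phosphorylation had medians of -0.39 over 12 and -0.54 over 33 tested genes. On the scale of the 200 most abundant genes these were 0.40 and 0.27, where all tested genes had 0.71. Ndufb9, a complex I subunit, had 43.9, 65.3 and 17.6 CPM in overlap and 140, 231 and 340 CPM in mCherry libraries (-2.48 ± 0.83), separated under every scale. Ndufs1 stood at -2.50 ± 1.16 but at 0.66 without overlap 1 and mCherry 3. For Ldha, lactate dehydrogenase A, 205 of 286 mCherry counts lay in mCherry 3, and its value of -3.30 became -0.40. The 14-3-3 gene Ywhah was at 0 in each overlap library and at 15, 33 and 5 counts in mCherry libraries, at least 13.4-fold lower, while the other 5 members had unadjusted p-values of 0.178 to 0.952.

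Cytosolic ribosomal protein genes were about balanced on the TMM scale, 27 positive and 21 negative of 48 tested (median 0.19). On the scale of the 200 most abundant genes 35 were positive (median 0.92), where all tested genes had a median of 0.71. Many have processed pseudogenes that can share reads, so single members are uncertain. Rps2 had 186, 115 and 173 CPM in overlap and 26.6, 24.7 and 0 CPM in mCherry libraries (3.05 ± 0.97, DESeq2 adjusted p = 0.0217). Rpl23a and Rps12 stood at 2.88 ± 1.15 and 2.02 ± 0.83, separated under every scale. Rps15a ran against them, at 0 in overlap cells and at 4, 4 and 123 counts in mCherry cells, at least 33.2-fold lower and carried by mCherry 3.

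The series title names Fgf2 and Notch2 as marks of amygdala projections. Fgf2 had 0 counts in all 6 libraries compared and 5, 6 and 22 counts in the c-fos libraries. A count of 0 allows up to 3 counts, or 32.9, 11.5 and 10.6 CPM in overlap 1 to 3 and 11.4, 6.73 and 23.7 CPM in mCherry 1 to 3. Notch2 had 1, 2 and 0 counts in overlap and 24, 0 and 33 counts in mCherry libraries, and fell below the filter. Its ratio of pooled counts was 14.4 for mCherry over overlap (95% interval 4.70 to 72.1), from counting error alone, and mCherry 2 with the most counts in all held none.

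No FGF signalling gene passed edgeR's adjusted test. Of 43 on the list, Fgf2 among them, 29 had counts and 10 were tested, 7 with positive and 3 with negative fold changes (median 0.89, and 1.69 on the scale of the 200 most abundant genes). The summed level was 866, 1126 and 1376 CPM in overlap and 653, 435 and 506 CPM in mCherry libraries, apart in 5 of 5 scales. Fgf9, a ligand that neurons secrete, had 2, 33 and 62 counts in overlap and 4, 0 and 0 counts in mCherry libraries (4.46 ± 1.27, DESeq2 adjusted p = 0.0204), and overlap 1 with 21.9 CPM lay close to mCherry 1 with 15.2 CPM. Fgf18, another ligand, had 143, 76.9 and 187 CPM in overlap and 22.8, 33.6 and 7.91 CPM in mCherry libraries (2.56 ± 0.93, DESeq2 adjusted p = 0.0402). Flrt3, a membrane protein that binds FGF receptors, had 76.8, 146 and 81.1 CPM in overlap against 0, 26.9 and 15.8 CPM in mCherry libraries (2.76 ± 1.05). With Spry2, also on the feedback list, these 4 of the 10 tested had an unadjusted p under 0.05 and were separated under every scale. Of all tested genes, 6.32% were higher at that p and 5.72% were separated upward under every scale. Fgf9, Fgf18, Flrt3 and Spry2 had 4, 22, 14 and 6 counts over the mCherry libraries. They could pass the filter through the overlap and c-fos libraries, so 4 of 10 against these shares is no result about the list. The receptors Fgfr1 and Fgfr2 stood at -0.28 and -0.02, and Fgfr3, below the filter, had 1, 14 and 42 counts in overlap and 2, 0 and 3 in mCherry libraries.

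Notch pathway genes had 4 positive of 6 tested of 32, with a median of 0.16. Maml3, a coactivator of Notch, was the 1 member with an unadjusted p under 0.05, at 11, 108 and 28.2 CPM in overlap and 102, 108 and 1230 CPM in mCherry libraries. Its value of -3.20 ± 1.03 became -0.68 without overlap 1 and mCherry 3. Notch1 stood at -1.02, and the target gene Hes1 had 18 counts in overlap 1 and 1 in all the other 5 libraries.

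Receptors for itch, pain and neuromodulators were sparse. Of 25 opioid, histamine, pain and itch receptor genes, 19 had counts and 6 were tested, with a median of 0.32. Hrh3, the histamine H3 receptor, which restrains transmitter release, had 2, 0 and 1 counts in overlap and 23, 37 and 12 counts in mCherry libraries, a ratio of 18.2 for mCherry over overlap (95% interval 5.99 to 90.5). In CPM the mCherry libraries were even, at 87.3, 83 and 94.9, and the groups were apart under every scale, although the adjusted p was 0.278 in edgeR and 0.108 in DESeq2. The kappa opioid receptor Oprk1 had 285, 53.8 and 28.2 CPM in overlap and 72.1, 44.9 and 7.91 CPM in mCherry libraries, and the mu receptor Oprm1 21.9, 38.4 and 10.6 CPM in overlap against 30.4, 49.3 and 0 CPM in mCherry libraries, ranges that overlapped for both. Grpr, Trpv1, Trpa1 and Hrh4 had 0 counts in all 6 libraries. Monoamine and acetylcholine receptors had 5 positive of 9 tested with 0 at an unadjusted p under 0.05. Their median was 0.98, and 0.43 without overlap 1 and mCherry 3. The list summed to 570, 603 and 660 CPM in overlap and 338, 489 and 419 CPM in mCherry libraries, apart in 5 of 5 scales. The 13 tested neuropeptide and granule genes had a median of -0.14, and 0.59 on the scale of the 200 most abundant genes. Among them, Oxt, oxytocin, had 0, 22 and 14 counts in overlap and 2, 0 and 0 in mCherry libraries, a ratio of 23.7 (95% interval 6.10 to 203).

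Markers of neurons and some of the spermatocyte markers had counts in both groups. Glutamatergic markers summed to 1502, 922 and 970 CPM in overlap and 1214, 1873 and 1638 CPM in mCherry libraries, ranges that overlapped, with all 11 detected. The vesicular glutamate transporter Slc17a7 had 21.9, 142 and 303 CPM in overlap and 292, 498 and 182 CPM in mCherry libraries. Neurod6, a transcription factor of cortical and amygdalar excitatory neurons, had 32.9, 119 and 88.2 CPM in overlap and 300, 377 and 332 CPM in mCherry libraries and was separated under every scale (-2.03 ± 0.69, adjusted p = 0.246). GABAergic markers, 14 of 16 detected, summed to 395, 188 and 166 CPM in overlap and 129, 211 and 142 CPM in mCherry libraries, and Gad2 and Slc32a1 each had counts in at most 2 libraries of a group. Spermatocyte markers, 15 of 20 detected, summed to 274, 181 and 324 CPM in overlap and 133, 197 and 926 CPM in mCherry libraries. The meiosis genes Sycp1, Stra8, Dmc1 and Spo11 and the sperm gene Pgk2 were at 0 in all 6. Of the mCherry 3 sum, Tnp1, a transition protein of late sperm cells, made 815 CPM. Basolateral amygdala markers summed to 724, 480 and 462 CPM in overlap and 425, 471 and 934 CPM in mCherry libraries, with Rspo2 lower (-1.76 ± 0.79) and Fezf2 higher (4.21 ± 1.72) in overlap cells at unadjusted p of 0.0409 and 0.0263. With overlap 1 and mCherry 3 left out these stood at -0.94 and 2.90.

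Summed markers of astrocytes, oligodendrocytes, microglia and endothelial cells overlapped between the groups on the TMM scale, and those of oligodendrocyte precursors did not. Astrocyte markers stood at 921, 1080 and 1686 CPM in overlap and 1195, 1438 and 2081 CPM in mCherry libraries, with 15 of 15 detected. Clu, clusterin, stood out with 3, 2 and 4 counts in overlap and 36, 34 and 91 counts in mCherry libraries (-4.19 ± 1.15, DESeq2 adjusted p = 0.0342). Oligodendrocyte markers, 11 of 15 detected, stood at 2500, 2840 and 4596 CPM in overlap and 5956, 4024 and 3252 CPM in mCherry libraries, while Opalin, Olig1 and Olig2 were at 0 and Mbp had 1 count in overlap and 31 in mCherry cells (ratio 23.6 for mCherry over overlap, 95% interval 3.92 to 960). Microglial markers, 9 of 11 detected, stood at 504, 196 and 289 CPM in overlap and 273, 117 and 285 CPM in mCherry libraries. Their member Csf1r, the receptor of the microglial growth factor, had 373, 34.6 and 88.2 CPM in overlap and 11.4, 2.24 and 0 CPM in mCherry libraries (4.91 ± 1.36, DESeq2 adjusted p = 0.0139, and 3.11 with overlap 1 and mCherry 3 left out), while the defining markers P2ry12 and Tmem119 were at 0 in all 6. Endothelial and mural markers, 13 of 15 detected, stood at 263, 530 and 487 CPM in overlap against 429, 541 and 316 CPM in mCherry libraries, with Cldn5 and Tek at 0. The choroid plexus gene Ttr had 2, 5 and 0 counts in overlap and 4, 1 and 169 counts in mCherry libraries, the last of them in mCherry 3. Oligodendrocyte precursor markers, 3 of 4 detected, stood at 43.9, 23.1 and 21.2 CPM in overlap and 45.5, 47.1 and 127 CPM in mCherry libraries, apart in 3 of 5 scales. Striatal and central amygdala markers stood at 340, 384 and 430 CPM in overlap against 478, 538 and 206 CPM in mCherry libraries. Blood markers had counts in only 1 library of each group. The part of these cells in the gene results was not tested.

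**Figure D5:**
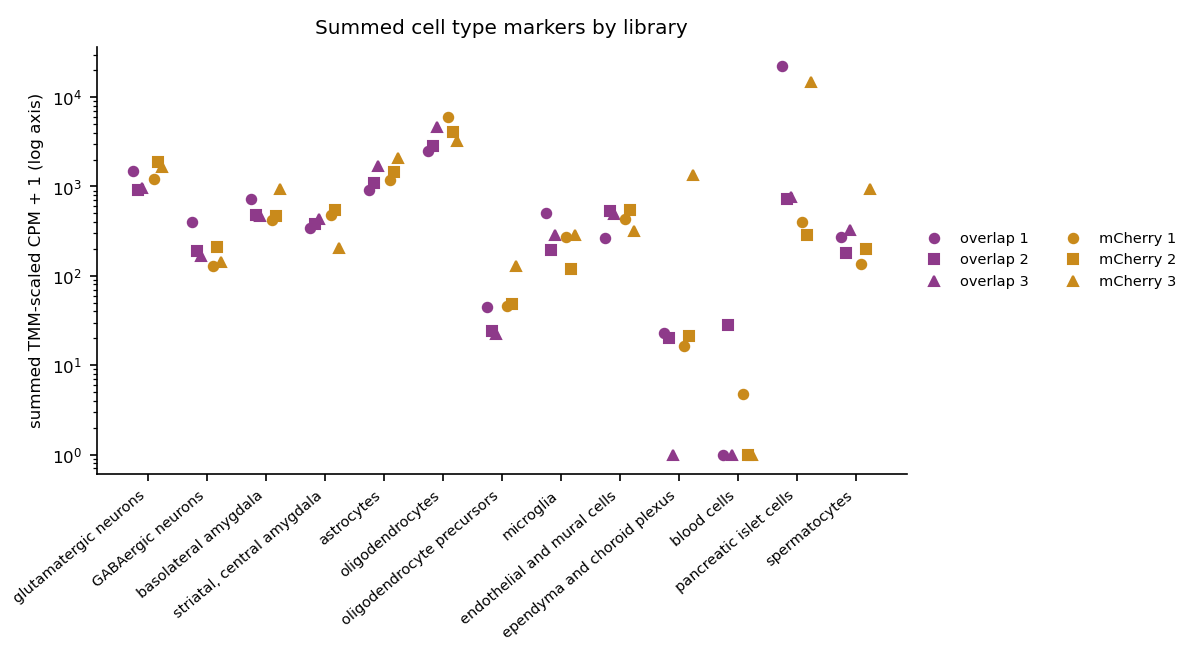
Summed level of 13 cell type marker lists in each library, as TMM-scaled CPM plus 1 on a log axis, overlap (purple) left of mCherry (orange). Islet markers reach 22075 CPM in overlap 1 and 14841 CPM in mCherry 3 against 287 to 762 CPM in the other 4 libraries, while glutamatergic, astrocyte and oligodendrocyte sums overlap between the groups.

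The calls of the other tools lay in different parts of the abundance range. All 36 genes that limma-voom called lower were among the 200 most abundant, against 2 of the 49 lower and 0 of the 131 higher calls of DESeq2. Beyond genes named above, limma-voom's calls included the RNA-binding proteins Celf4 (-1.40 ± 0.31 in edgeR, limma-voom adjusted p = 0.00279) and Luc7l2 (-1.46 ± 0.34, limma-voom adjusted p = 0.00859) and the amyloid precursor App (-1.23 ± 0.31, limma-voom adjusted p = 0.0219), which were chosen after their values were seen. In DESeq2's higher calls the median gene had 79 counts over the 6 libraries, 23 had 0 counts in mCherry cells, and 12 had over 75% of their overlap counts in 1 library. Without overlap 1 and mCherry 3, 73 of DESeq2's 180 calls remained. In edgeR's test 0 of 10372 genes were then called (0%), with 589 higher (5.68%) and 577 lower (5.56%) at an unadjusted p under 0.05.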

How the data were processed

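Smart-3SEQ libraries of laser-captured mouse cells were used as the authors deposited them, as 1 table of whole-number counts per gene for 9 libraries. Per the submitters' processing notes, the tools included Trim Galore, STAR, UMI-tools and featureCounts with build mm9. Roles, settings and strand handling are not given there, so reads of overlapping genes may be shared. Of 54838 identifiers, 115 had no symbol (0.222% of counts). The 37 mitochondrial genes held 0 counts.

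A fit over all 9 libraries was made with edgeR 4.0.16 (R 4.3.3), tested on simulated data. Genes passed filterByExpr at its minimum count of 10, libraries were scaled by TMM, and the quasi-likelihood p-values of 7959 genes were adjusted by Benjamini-Hochberg, with a threshold of 0.05. The biological coefficient of variation was 0.857. Totals of 90091 to 429317 counts put the level of 3 counts at 6.73 to 32.9 TMM-scaled CPM. DESeq2 1.42.0, limma 3.58.1 (voom), 4 other scalings, 2 other filters and fits without single libraries were alternatives. Library totals and detected genes were compared by exact permutation tests. Gene symbols, types and overlaps came from a GENCODE annotation of GRCm38, so no gene coordinates are given. The libraries, lists and named genes were chosen with earlier results of these data known. Named were Fos, Fgf2 and Notch2, every gene past the threshold, the 12 genes per direction of smallest p among those separated under all 5 scalings, and up to 4 members per list with an unadjusted p under 0.05. Pseudogenes and predicted genes enter counts only. Of 92 named genes, 34 overlap another annotated gene on the same strand and 55 on either strand. Some genes that this rule names are not reported here.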

Additional observations from a re-analysis of the deposited data

How the results depend on the processing

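The count of 2 called genes depended on the processing. It was 0 with DESeq2's size factors, upper quartile scaling, total count scaling, the scale of the 200 most abundant genes, a stricter filter (minimum count 30) or a fit of overlap and mCherry libraries alone. It was 344 with no filter, 180 in DESeq2, 37 in limma-voom and 10 with the replicate number as a block. Of the 344, 28 of 55 higher and 210 of 289 lower calls had over 75% of their group's counts in 1 library. Leaving out each library in turn gave 2 to 20 calls, with 16 without mCherry 1, 5 without mCherry 2 and 20 without mCherry 3. Of those 20, 10 were lower, all among the 200 most abundant genes. The 10 higher calls included the islet genes Ins1 and Ins2, and 4 of the 10 had over 75% of their overlap counts in 1 library. Without mCherry 3 and overlap 1 edgeR called 0. In alternatives chosen after seeing the data, the fit without both gave 334 calls in DESeq2 (207 higher, 127 lower), 0 on the scale of the 200 most abundant genes and 0 on total counts. The cause was not tested. At an unadjusted p under 0.05 the main fit had 503 higher and 614 lower genes, DESeq2's size factors 644 and 469, total counts 587 and 388, and the scale of the 200 most abundant genes 1137 and 190.

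Deviations of same-numbered overlap and mCherry libraries from their group means correlated at 0.0377, 0.0158 and 0.0122. Those of differently numbered libraries correlated at -0.0308 to 0.0184, highest for overlap 3 with mCherry 2. Correlations this near 0 cannot decide whether same-numbered libraries share animals. Under the block the 10 calls were Meg3, Malat1, Hsp90ab1, Chd3, Frrs1l, Ttc3, Rtn1, Celf4, Nptxr and the predicted gene Gm14508.

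For 90 named genes, 2014 alternative values were computed. Direction and side of the threshold were kept in 1854, 130 passed it newly, 20 no longer did and 10 reversed. Without mCherry 3 and overlap 1 on the scale of the 200 most abundant genes values were 0.08 for Dlg4, 0.46 for Nlgn1, 0.30 for Atp1b1, 0.44 for Ldha and 0.04 for Maml3. The log2 fold change of Ndufs1 lay between -4.02 and 0.24 when single libraries were left out, with 0.24 without mCherry 3, and without both libraries at 0.66, 0.86 in DESeq2, 1.59 on the scale of the 200 most abundant genes and 0.73 on total counts. The other 84 of the 90 did not reverse. Genes named only for their level beside a list are outside this count. Of these, Nr4a2, Per1 and Tiparp changed sign without mCherry 3 and overlap 1. The difference in genes detected was -105 at equal depth, -1400 without thinning and -966 to 560 when single libraries were left out. Low depth limits the rarer receptors and ligands most, where 3 counts are up to 32.9 CPM.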
